A study of Homo sapiens with 6 samples.

Results

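Interferon-stimulated effector genes encode the proteins that carry out the antiviral and growth-restraining programme of interferons. The set described here holds 50 genes chosen by symbol. The array names probes for 18849 genes. All probes annotated to a member were read. Of the 50 genes, 49 had at least 1 named probe, with 77 probes in all. USP18 had none and was not analysed here. Probes were tested where their mean intensity passed the 40th percentile of probes (89.9), and 66 probes of 44 members did so. OASL, MX2, RSAD2, CMPK2 and IFI44L did not pass and are given as levels without a test.

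The arrays hold RNA of SKOV3ip1, ovarian cancer cells derived from the established human line SKOV3. They had received a control siRNA (siCon, 3 arrays) or an siRNA against STAT3 (siSTAT3, 3 arrays). No interferon treatment is named in the labels, and both groups are the same line with an siRNA transfected. The comparison reads these genes in transfected cells, with STAT3 transcript reduced in the siSTAT3 group. No array holds untransfected cells, so the resting level of these genes was not measured. Nothing in the labels states whether replicates were grown as separate cultures, so the p-values reflect array-to-array spread that could be purely technical. All arrays come from this one cell line.

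Interferons bind cell surface receptors whose JAK kinases phosphorylate STAT proteins. The complex ISGF3, which holds IRF9, binds the interferon-stimulated response element (ISRE) in promoters, while STAT dimers bind a palindromic site. The effectors act at separate steps of infection: OAS enzymes and EIF2AK2 sense double-stranded RNA, IFIT and IFITM proteins block translation and entry, GBP and MX proteins are GTPases, and ISG15 is a ubiquitin-like modifier. STAT3 is activated by cytokines of the IL6 family and also by interferons.

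Promoter sequences are shown because interferon-stimulated genes share a mode of transcription. The members were chosen by name as such genes, so their share of windows with a response element is not an independent result. RefSeq windows of 300 bases on GRCh38.p14, from 250 before to 50 after the annotated start, were found for 40 of the 50 members. None was in the table for OAS2, OASL, IFIT2, IFITM2, MX2, GBP2, TRIM22, DHX58, USP18 and PML. Both strands were searched for the core of the response element (GAAA, any 2 bases, then GAAA) and for the STAT palindrome TTCNNNGAA. The windows below belong to ISG20, IFI35, GBP1 and EPSTI1, the members with the smallest adjusted p, and to IFI6, OAS1 and ISG15 as classical interferon targets. Capitals mark motif matches. Each sequence reads 5′ to 3′ on the strand of its gene.
ISG20 (chr15:88638766-88639065, plus strand): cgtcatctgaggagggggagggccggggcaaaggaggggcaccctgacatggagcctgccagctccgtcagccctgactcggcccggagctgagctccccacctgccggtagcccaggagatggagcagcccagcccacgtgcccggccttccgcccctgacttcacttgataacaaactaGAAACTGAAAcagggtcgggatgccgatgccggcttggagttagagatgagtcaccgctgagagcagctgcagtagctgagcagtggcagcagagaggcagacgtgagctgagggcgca
IFI35 (chr17:43006534-43006833, plus strand): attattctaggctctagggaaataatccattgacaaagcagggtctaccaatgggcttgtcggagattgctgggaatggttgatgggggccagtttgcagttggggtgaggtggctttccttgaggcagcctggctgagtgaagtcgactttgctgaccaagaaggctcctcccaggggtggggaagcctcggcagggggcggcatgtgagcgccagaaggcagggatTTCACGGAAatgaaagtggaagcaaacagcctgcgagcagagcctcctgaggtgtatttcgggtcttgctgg
GBP1 (chr1:89065159-89065458, minus strand): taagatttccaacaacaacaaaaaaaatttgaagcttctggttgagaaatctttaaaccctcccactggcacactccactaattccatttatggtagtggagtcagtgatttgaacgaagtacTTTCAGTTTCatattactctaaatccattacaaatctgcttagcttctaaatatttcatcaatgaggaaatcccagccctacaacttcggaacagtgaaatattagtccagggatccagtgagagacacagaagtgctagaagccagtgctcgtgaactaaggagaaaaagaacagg
EPSTI1 (chr13:42992192-42992491, minus strand): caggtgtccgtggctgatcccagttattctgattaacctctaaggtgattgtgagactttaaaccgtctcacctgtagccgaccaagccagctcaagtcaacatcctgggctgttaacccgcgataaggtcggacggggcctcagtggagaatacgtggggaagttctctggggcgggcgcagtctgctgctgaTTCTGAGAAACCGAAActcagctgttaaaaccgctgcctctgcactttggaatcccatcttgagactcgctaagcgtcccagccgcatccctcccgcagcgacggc
IFI6 (chr1:27672143-27672442, minus strand): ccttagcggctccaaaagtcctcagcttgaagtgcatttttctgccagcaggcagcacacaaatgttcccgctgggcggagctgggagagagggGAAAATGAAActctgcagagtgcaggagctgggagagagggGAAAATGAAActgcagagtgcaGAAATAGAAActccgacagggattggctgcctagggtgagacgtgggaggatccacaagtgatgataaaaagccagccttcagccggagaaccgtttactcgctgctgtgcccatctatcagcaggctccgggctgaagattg
OAS1 (chr12:112906712-112907011, plus strand): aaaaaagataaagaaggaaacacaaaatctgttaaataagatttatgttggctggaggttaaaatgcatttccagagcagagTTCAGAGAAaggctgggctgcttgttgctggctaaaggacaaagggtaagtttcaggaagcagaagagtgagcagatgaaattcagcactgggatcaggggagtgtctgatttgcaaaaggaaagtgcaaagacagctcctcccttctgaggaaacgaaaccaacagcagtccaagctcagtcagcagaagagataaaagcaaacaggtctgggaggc
ISG15 (chr1:1013247-1013546, plus strand): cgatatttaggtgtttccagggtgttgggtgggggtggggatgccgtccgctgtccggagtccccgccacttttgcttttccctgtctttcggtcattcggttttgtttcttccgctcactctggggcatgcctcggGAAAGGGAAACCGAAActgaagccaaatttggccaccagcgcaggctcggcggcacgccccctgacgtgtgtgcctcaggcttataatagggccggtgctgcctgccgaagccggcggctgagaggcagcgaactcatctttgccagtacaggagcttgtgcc

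The ISRE core was found in 28 of the 40 member windows (70%), against 996 of 27305 RefSeq windows (3.65%). In ISG20 a match ended 60 bases before the start (GAAACTGAAA). The IFI6 window held 3 matches, of which GAAAATGAAA occurred in a pair. In ISG15 a pair of matches overlapped each other. Matches lay on both strands, and the one of GBP1 (TTTCAGTTTC) reads as the motif on the other strand. The windows of IFI35, OAS1, ADAR, UBE2L6, HERC6, SAMHD1, RSAD2, CMPK2, SP100, XAF1, PARP9 and TRIM25 held no match, which says only that these letters are not in that window. Among them, OAS1, XAF1 and RSAD2 held GAAACGAAA, TRIM25 held it on the other strand, and IFI35 held GAAATGAAA. Such repeats have a shorter spacer than the search allowed and were counted as no match. The STAT palindrome was found in 9 of 40 member windows (22.5%) and in 2152 of all windows (7.88%). IFI35 carried TTCACGGAA, which ended 14 bases before its start. In BST2, EPSTI1, IFI27 and IFITM1 a match of the palindrome overlapped one of the response element, since both motifs hold the letters GAA. The median log2 change was 0.05 in 27 tested members with the ISRE core (-0.39 to 0.66) and 0.04 in 10 without it (-0.22 to 0.48), a difference that was not tested.

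**Figure D1:**
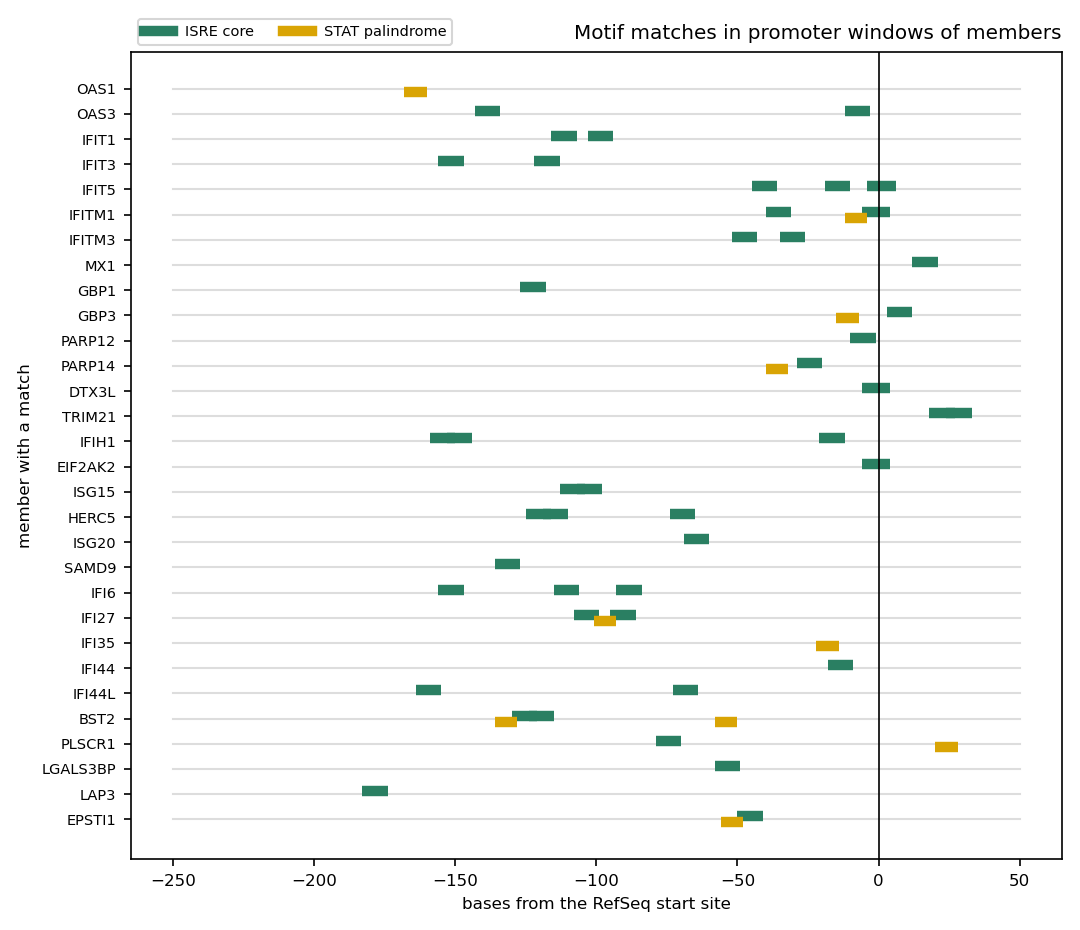
Matches of the ISRE core (green) and the STAT palindrome (yellow) in the promoter windows of the 30 members with a match of either. The x axis gives bases from the RefSeq start site. Members are ordered by family, and the match farthest from the start, that of LAP3, begins 183 bases before it.

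Many members also neighbour each other in the genome. OAS1, OAS3 and OAS2 are adjacent coding genes on chromosome 12, GBP3, GBP1 and GBP2 on chromosome 1, and IFITM2, IFITM1 and IFITM3 on chromosome 11. The 7 adjacent pairs are IFI44L and IFI44 on chromosome 1, CMPK2 and RSAD2 on chromosome 2, PARP9 and DTX3L on chromosome 3, HERC6 and HERC5 on chromosome 4, IFIT2 and IFIT3 as well as IFIT1 and IFIT5 on chromosome 10, and MX2 and MX1 on chromosome 21.

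STAT3 itself fell. Its brightest probe read 2771, 2237 and 2538 on the siCon arrays and 588, 549 and 667 on the siSTAT3 arrays, 23.9% of control remaining (log2 change -2.06 ± 0.12 SE, limma adjusted p = 2.42e-07). The other STAT3 probes left 32.3% and 29.9%. Values are linear intensities after quantile normalisation, changes are log2 siSTAT3 over siCon, and limma's p-values were adjusted over the 14145 genes tested. Of these, 207 (1.46%) passed a threshold of 0.05, 56 of them higher (0.396%) and 151 lower (1.07%).

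The cells were checked against markers. Of 11 epithelial and ovarian carcinoma markers 8 were clearly above background, among them ERBB2 (5644 in siCon), EPCAM (2759), KRT19 (2732) and PAX8 (1245), while CDH1, MUC16 and WT1 were dim. Of the 11, KRT8 was lower in siSTAT3 (1393 and 969, -0.52, limma adjusted p = 0.046). MSLN did not pass (1389.9 and 1046, -0.41, limma adjusted p = 0.0609). KRT8, MSLN and WT1 lay lower without overlap (27.3% of the 11, against 8.56% of all genes). PAX8 lay higher without overlap (9.09%, against 8.63%). Dim here means that both group means were below 120.6, which is 1.3 times the median probe. All 7 measured leukocyte markers, PTPRC and CD14 among them, were dim, as were 3 of 4 endothelial and 4 of 5 fibroblast markers. The summed leukocyte markers ranged from 639 to 657 in siCon and from 608 to 655 in siSTAT3, endothelial markers from 345 to 422 and from 369 to 402, and fibroblast markers from 482 to 497 and from 476 to 495. The part of these markers, KRT8 and MSLN included, in any result was not tested. In bulk RNA a change in the share of cells that express a gene and a change in RNA per cell cannot be told apart. The siCon replicate 3 array had a mean correlation of 0.989 with its group, against 0.991 to 0.995 for the other arrays, and was the lowest siCon array for 18 of 44 tested members (40.9%) and 39.6% of all genes.

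Interferon effectors were expressed over a wide range in control cells. HERC5 (5558), IFITM2 (4425), IFITM3 (3484), EIF2AK2 (2548), ADAR (1922), UBE2L6 (1785), IFI6 (1700.0) and BST2 (1066) were the brightest in siCon, and 38 members lay above the dim limit in at least 1 group. The dim members were OAS1, OASL, IFIT5, MX2, DTX3L, TRIM22, SAMHD1, RSAD2, CMPK2, IFI44L and XAF1. RSAD2, CMPK2, MX2, OASL and IFI44L, all strongly inducible by interferon in many cells, read between 68.8 and 111 on every array over all of their probes, so a change there would hardly show. Intensities of different probes are not levels of RNA per length, and the order is one of signals.

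After STAT3 siRNA, ISG20 was the 1 of 44 tested members that changed by its representative probe (2.27%, beside 0.396% of all genes higher). None was lower (1.07% of all genes lower), and 43 did not pass. At an unadjusted p under 0.05, 7 members were higher (15.9%, against 6.22% of all genes) and 4 lower (9.09%, against 5.87%). All 3 siSTAT3 arrays lay above all 3 siCon arrays for 11 members (25%, against 8.63% of all genes), and below them for 3 (6.82%, against 8.56%). The median log2 change of tested members was 0.04, against 0.01 over all genes, and 28 of 44 (63.6%) lay above 0, against 51.7%. The members went both ways, from -0.39 to 0.66. By array, the median log2 deviation of tested members from their own means was -0.022, -0.022 and -0.039 in siCon. In siSTAT3 it was 0.039, 0.085 and -0.013, and its SD between replicates was 0.035, close to the members' median change. Members that share a locus or a motif are not independent of each other, and the set received no test of its own.

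**Figure D2:**
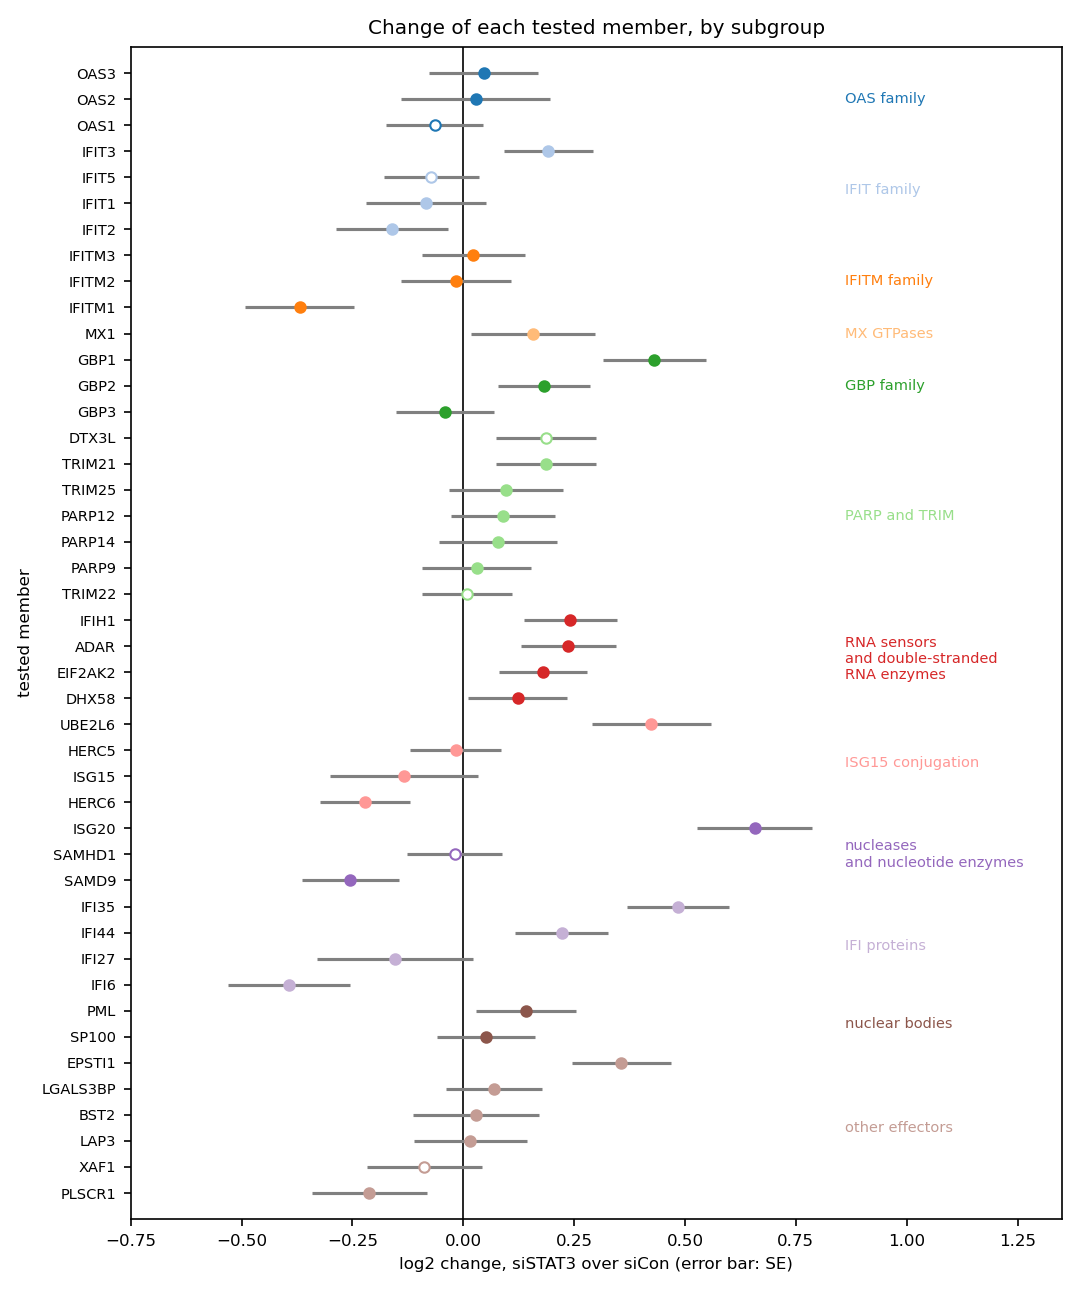
Log2 change, siSTAT3 over siCon, of the 44 tested members grouped by role, with the standard error as a bar. Open circles are dim members. ISG20 (0.66) lies farthest to the right and IFI6 (-0.39) farthest to the left, and the 7 PARP and TRIM members and IFIH1, ADAR, EIF2AK2 and DHX58 lie above 0.

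Nucleases and nucleotide enzymes held the called gene. ISG20 encodes an exonuclease that degrades single-stranded RNA. In siCon it read 355, 312 and 245, and in siSTAT3 507, 473 and 444. Every siSTAT3 array lay above every siCon array. Means were 304 ± 55.04 and 475 ± 31.2 (SD, n = 3), a 1.58-fold rise (0.66 ± 0.13, limma adjusted p = 0.0183). Leaving out siSTAT3 replicate 1, 2 or 3 raised the adjusted p to 0.142, 0.0979 and 0.0826, with changes of 0.61, 0.66 and 0.70. Without siCon replicate 1, 2 or 3 the limma adjusted p was 0.0123 to 0.0279, with changes of 0.78, 0.68 and 0.51.

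SAMD9, an antiviral protein that restricts poxviruses, did not pass. It read 691, 625 and 772 in siCon and 601, 559 and 583 in siSTAT3, the groups not overlapping (-0.26 ± 0.11, limma adjusted p = 0.357). SAMHD1, a deoxynucleotide triphosphohydrolase, was dim at 103 and 102. RSAD2, the enzyme viperin, and its neighbour CMPK2, a nucleotide kinase, were below the test limit with means of 91.9 and 79.1 in siCon and 86.6 and 83.5 in siSTAT3.

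The 4 tested IFI genes had changes from -0.39 to 0.48. IFI35, a protein that interacts with NMI, read 513, 521 and 409.8 in siCon and 686, 639 and 684 in siSTAT3, again without overlap. Its means of 481 ± 61.99 and 669.9 ± 26.4 gave a change of 0.48 ± 0.12 with an adjusted p of 0.0503 by limma, just outside the threshold. IFI35 passed in the fit without siCon replicate 2 (0.0436) and lay at 0.247 without siSTAT3 replicate 3. Its change without single arrays was 0.37 to 0.55, smallest without siCon replicate 3, its lowest control. IFI44, a protein of microtubular aggregates, lay at 228 and 265 with no overlap (0.22, limma adjusted p = 0.416).

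IFI6, a protein that inhibits apoptosis and flavivirus replication, had lower signal on both of its probes. Its brighter probe read 1708, 1820.5 and 1572 in siCon and 1173, 1645 and 1117 in siSTAT3, where siSTAT3 replicate 2 lay inside the control range (-0.39 ± 0.14, limma adjusted p = 0.225). On the dimmer probe (ILMN_2347798) the values were 223, 253 and 239 in siCon and 148, 165 and 161 in siSTAT3. The groups were apart there, with means of 238 ± 15.2 and 158 ± 8.77, 66.3% of control.

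That second IFI6 probe, described here because its values had been seen, fell when every probe was tested on its own (-0.59 ± 0.10, limma adjusted p = 0.00799). In that fit 257 of 29282 probes passed (0.878%, of which 0.201% higher and 0.676% lower). Among 66 member probes 1 was higher, that of ISG20, and 1 was lower, that of IFI6. The probe's adjusted p was 0.0866 without siSTAT3 replicate 1 and 0.0583 without replicate 3. When a gene's probes were averaged, IFI6 as a gene passed (adjusted p = 0.0435 by limma). The brighter probe did not pass in any fit that left out an array (lowest adjusted p = 0.0649).

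IFI27, a small hydrophobic membrane protein, overlapped. It read 645, 622 and 573 in siCon and 522, 787 and 406 in siSTAT3, where replicate 2 lay above and replicates 1 and 3 below all controls (-0.15 ± 0.18, limma adjusted p = 0.815). The same siSTAT3 replicate 2 was the highest of its group for the brighter IFI6 probe and for ISG15. It was the lowest for other members, such as IFI35, IFIT2 and PARP14, and its rank over all members was not counted.

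**Figure D3:**
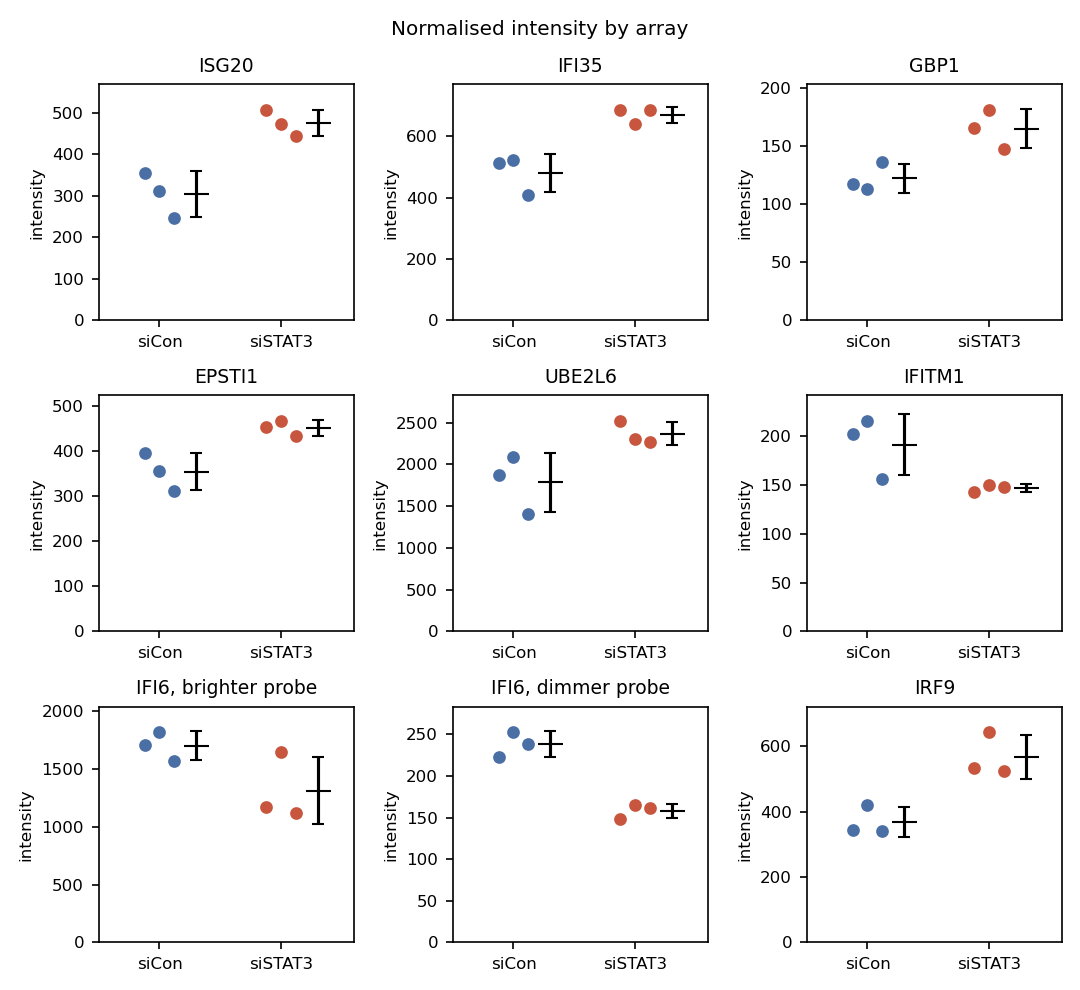
Normalised intensity on each array for ISG20, IFI35, GBP1, EPSTI1, UBE2L6, IFITM1, both IFI6 probes and IRF9, siCon in blue and siSTAT3 in red, with the mean and SD as a black bar (n = 3 per group). The groups do not overlap for ISG20, IFI35, GBP1, EPSTI1, UBE2L6, IFITM1, the dimmer IFI6 probe and IRF9, and overlap for the brighter IFI6 probe.

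The GBP genes encode guanylate-binding GTPases that attack the membranes of intracellular pathogens. GBP1 read 117, 113 and 137 in siCon and 166, 181 and 148 in siSTAT3, just above the dim limit and without overlap (0.43 ± 0.12, limma adjusted p = 0.0905). Its second probe gave 126 and 156 (0.31), also without overlap. GBP1 passed without siCon replicate 3 (0.0137), and its adjusted p reached 0.377 without siSTAT3 replicate 2. GBP2 lay at 191, 222 and 207 in siCon and at 240.2, 224 and 238 in siSTAT3, apart by a small margin (0.18 ± 0.10, limma adjusted p = 0.544). GBP3 overlapped, with 198, 224 and 244 against 208, 232 and 206 (-0.04).

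IFIH1, DHX58, EIF2AK2 and ADAR were grouped as sensors and enzymes of double-stranded RNA, apart from the OAS family. These 4 lay above 0, at 0.12 to 0.24, and none passed. The same 4 lay above 0 under each alternative run. Changing the filter, trended variance, blocking and testing every probe left their changes as they were, so those runs could not alter a sign. ADAR, which edits adenosine to inosine in double-stranded RNA, read 1914, 1735 and 2116 in siCon and 2239, 2237 and 2297 in siSTAT3 (0.24 ± 0.11, limma adjusted p = 0.394). Its second tested probe gave 0.09, with the groups overlapping. EIF2AK2, the kinase PKR that halts translation, read 2567, 2511 and 2566 and then 2964, 2834 and 2860.5 (0.18 ± 0.10, limma adjusted p = 0.517). For both genes the groups did not overlap on the probe given by array.

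IFIH1, the cytosolic sensor MDA5, lay at 162, 158 and 169 in siCon and at 183, 212 and 184 in siSTAT3, without overlap (0.24, limma adjusted p = 0.369). DHX58, the related helicase LGP2, overlapped near background (113 and 122, 0.12). These 4 had a median change of 0.21, beside 0.01 over all genes. IFIH1 and ADAR had unadjusted p-values of 0.0365 and 0.0426 by limma, a level that 6.22% of all genes reached on the higher side.

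The 7 PARP and TRIM members had small values above 0, from 0.01 to 0.19, with a median of 0.09. None passed, and the groups overlapped for each of them. TRIM25, a ubiquitin ligase that activates RIG-I, read 689, 794 and 553 in siCon and 766, 701 and 687 in siSTAT3 (0.10 ± 0.13, limma adjusted p = 0.852). PARP12, an ADP-ribosyltransferase, read 418, 392 and 352 and then 373, 471 and 395 (0.09, limma adjusted p = 0.851). TRIM21, an intracellular antibody receptor, gave 174 and 199 (0.19), and DTX3L, the ligase that partners PARP9, was dim at 103 and 117 (0.19). PARP9 (0.03), PARP14 (0.08) and TRIM22 (0.01) lay close to 0. The common sign was lost for 1 or 2 of the 7 without siCon replicate 2 or 3, without any of the siSTAT3 arrays, and when probes were averaged.

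None of the 4 tested genes of ISG15 conjugation passed, and their values had both signs. UBE2L6, the conjugating enzyme for ISG15, read 1868, 2087 and 1401 in siCon and 2521, 2308 and 2265 in siSTAT3, without overlap (0.42 ± 0.13, limma adjusted p = 0.164). Its other probes, far dimmer, gave 0.13 and 0.10. Without single arrays the change of the bright UBE2L6 probe was 0.26 to 0.55, smallest without siCon replicate 3. HERC6 lay at 534, 507 and 537 and then at 469, 457 and 429, with siSTAT3 below throughout (-0.22, limma adjusted p = 0.4). HERC5, the main ISG15 ligase of human cells, had means of 5558 ± 359 and 5484 ± 109, from arrays of 5558, 5199 and 5917 in siCon and 5609, 5428 and 5414 in siSTAT3. ISG15 itself overlapped, with 379, 351 and 244 against 269, 366 and 249 (-0.13 ± 0.17, limma adjusted p = 0.834).

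The OAS enzymes make the short adenylates that activate RNase L. None of the 3 tested OAS genes passed, and their changes lay between -0.06 and 0.05. OAS3 read 393, 345 and 451 in siCon and 360.4, 447 and 418 in siSTAT3 (0.05 ± 0.12, limma adjusted p = 0.944). Its second probe, near background, gave the opposite sign, with 117, 125 and 128 against 95.5, 101 and 105 (-0.30, limma adjusted p = 0.228 with every probe tested). OAS2 read 198, 127 and 130.3 and then 187, 127 and 147 (0.03). OAS1 was dim at 116 and 111, and OASL lay at 79.8 and 76.8.

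IFIT proteins bind viral RNA and block its translation. IFIT2 read 219, 193 and 217 in siCon and 228, 167 and 172 in siSTAT3 (-0.16 ± 0.13, limma adjusted p = 0.707). IFIT1 lay at 149.7, 201 and 201 and then at 166, 199 and 154 (-0.08), and its dimmer probe gave 0.14. IFIT3, which stabilises IFIT1, was the 1 member of the family whose groups did not overlap by representative probe (162 ± 6.69 and 185 ± 3.74, 0.19, limma adjusted p = 0.483). On its other tested probes the groups overlapped (0.19 and 0.05). IFIT5 was dim. The family's median was -0.08, with 3 of 4 below 0 and none past the threshold.

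IFITM proteins sit in membranes and hinder virus fusion. The dimmest of the 3, IFITM1, read 202, 216 and 157 in siCon and 143, 150.4 and 148 in siSTAT3, with no overlap (-0.37 ± 0.12, limma adjusted p = 0.195). Without siCon replicate 3, the lowest control, IFITM1 passed at -0.51 (limma adjusted p = 0.00954). IFITM2 read 4706, 4883 and 3686 and then 3919, 4506 and 4640.1 (-0.02). IFITM3 read 3956, 3354 and 3143 and then 3394, 3345 and 3852 (0.02). The 3 genes are close in sequence, and whether their probes tell them apart was not tested. Of the MX GTPases, MX1, which traps viral nucleocapsids, read 594, 598 and 423 and then 663, 604 and 521 (0.16 ± 0.14, limma adjusted p = 0.753), and MX2 was below the test limit.

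Among the remaining effectors, EPSTI1, first described as a stroma-induced gene of breast epithelium, read 394, 355 and 312 in siCon and 453, 467 and 432 in siSTAT3, without overlap. The means of 354 ± 41.2 and 451 ± 17.6 gave 0.36 ± 0.11 (limma adjusted p = 0.158). Without single arrays the change was 0.27 to 0.44, smallest without siCon replicate 3. BST2, or tetherin, which holds budding virions at the cell surface, overlapped, with 1145, 1253 and 801 against 1013, 1119 and 1077 (0.03). LAP3, a leucine aminopeptidase, read 845, 981 and 1179 and then 985, 1108 and 925 (0.02). PLSCR1, a phospholipid scramblase, gave -0.21, the secreted glycoprotein LGALS3BP 0.07 and the dim XAF1 -0.09. Probes of XAF1 disagreed, the other giving 0.26.

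The nuclear body genes were low and overlapped. SP100 read 134, 157 and 147 in siCon and 158, 159 and 136 in siSTAT3 (0.05), and PML, the scaffold of these bodies, 113, 115 and 134 and then 146, 125 and 127 (0.14, limma adjusted p = 0.712). The 7 PML probes ranged from -0.06 to 0.14. Of 13 members with several tested probes, 6 had a single sign over their probes and 7 had both, mostly at changes close to 0.

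**Figure D4:**
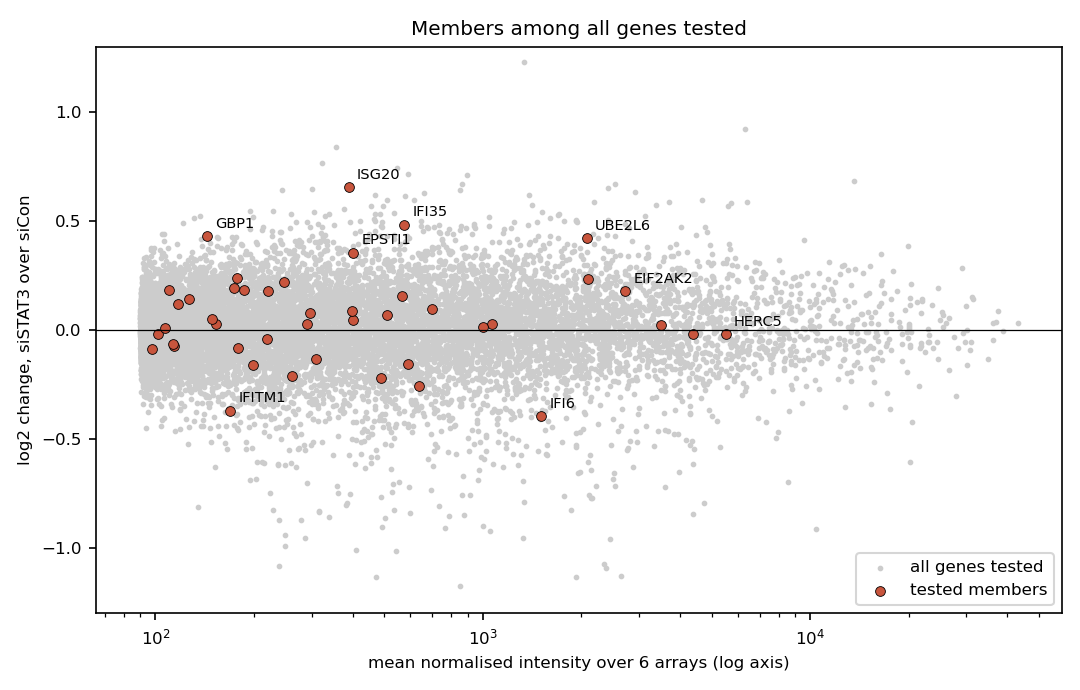
Log2 change against mean normalised intensity (log axis) for the 44 tested members (red) and all 14145 genes tested (grey). STAT3, at -2.06, lies outside the plotted range. ISG20 is at the upper edge of genes of its intensity, and most members lie within the grey cloud around 0.

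The genes upstream of the effectors were read from a list of 48 ligands, receptors, kinases, factors, brakes and sensors, of which 45 had a named probe and 36 were tested. The remaining 3 of the 48 were not analysed here. IRF9, the DNA-binding subunit of ISGF3, was the 1 of 36 that changed, and 35 did not pass (beside 0.396% of all genes higher). It read 344, 421 and 342 in siCon and 533, 645 and 525 in siSTAT3, without overlap, with means of 369 ± 44.8 and 567 ± 67.1 (0.62 ± 0.12, limma adjusted p = 0.0161). Without siCon replicate 1 the adjusted p was 0.0769, and without siSTAT3 replicate 1, 2 or 3 it was 0.0771, 0.13 and 0.0694.

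At an unadjusted p under 0.05, 5 of the 36 pathway genes were higher (13.9%, beside 6.22% of all genes) and 0 lower by limma (beside 5.87%). The list's median change was 0.03, beside 0.01 over all genes. The siSTAT3 arrays lay above all siCon arrays for 6 of them (16.7%, beside 8.63% of all genes) and below for 1 (2.78%, beside 8.56%). Of the receptor chains, IFNLR1 of the type III receptor was dim and the other 5 were not. None passed. IFNGR2 of the interferon gamma receptor had means of 2789.7 and 3492 (0.33, limma adjusted p = 0.189), and its partner IFNGR1 2047 and 1794 (-0.19, limma adjusted p = 0.536). IFNAR2 of the type I receptor had means of 497 and 589 (0.24, limma adjusted p = 0.4), and IFNAR1 300.4 and 280.3 (-0.10, limma adjusted p = 0.808). Of the sensors on this list, RIGI gave 0.24, AIM2 0.05, TLR3 -0.01, ZBP1 -0.06 and IFI16 -0.15, none of which passed. RIGI lay close to the dim limit, with means of 104 and 123 and no overlap (limma adjusted p = 0.398). CGAS was below the test limit, with means of 76.0 and 78.9.

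The 9 interferon genes read were all dim. IFNA1, IFNA2, IFNB1, IFNK, IFNG, IFNL2 and IFNL3 all failed the intensity limit for testing, with group means between 74.9 and 89.8. IFNE and IFNL1 were tested and dim (0.13 and -0.08). SOCS1 and SOCS3, feedback inhibitors of the JAK kinases, were dim as well.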

How the data were processed

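Total RNA was labelled as biotin cRNA and read on Illumina bead arrays in 1 colour, as the labels' protocols describe. Groups and replicate numbers are those of the sample titles. The authors deposited unnormalised probe intensity, all of it positive and without detection p-values, and a second table of processed intensity whose columns share 1 distribution (median 94.2). The submitters' processing notes name BeadStudio. No source used here says whether background had been subtracted, and any that remains shrinks the change of dim probes.

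From the unnormalised table, intensities (array medians 93.0 to 97.1) were quantile-normalised and taken to log2 with limma 3.58.1 in R 4.3.3. With 3 arrays a group, precision is limited by their number. Of 48803 probes 28098 had 1 gene symbol, 13 several and 20692 none. RefSeq updated the symbols (28059 probes by Entrez ID, 14 by accession, 25 kept). The tested probe with the highest mean on the log2 scale stood for each gene. The groups were compared with lmFit and eBayes (both sides, Benjamini-Hochberg over 14145 genes). The steps were tested on simulated data.

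By rule, array values are printed for members past the threshold, the 3 next by adjusted p, the brightest 2 of each subgroup, and IRF9. Other values printed were chosen after they were seen. Members and lists were chosen with earlier results of these data known. Alternatives comprised scaling by the median, use of the processed table, dropping the filter or raising it to the 60th percentile, normexp with an offset of 50, averaging probes, trended robust variance, weighting arrays, blocking on replicate number, testing every probe, and leaving out each array.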

Additional observations from a re-analysis of the deposited data

How the results depend on the processing

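The fall of STAT3 passed in all 16 alternatives, with changes from -2.15 to -1.99 when single arrays were left out. The count of 207 changed genes became 436 with array weights and 61 to 407 without single arrays (66, 82 and 61 without siSTAT3 replicates 1, 2 and 3, 407 without siCon replicate 3). The count of changed effector genes, 1, became 2 with no filter, 3 with the mean of a gene's probes and 4 with array weights, and 0 to 3 without single arrays. With array weights the called members were ISG20, IFI35, GBP1 and IFITM1. The count of pathway genes was 0 to 1 without single arrays. The members' median of 0.04 was 0.074 under median scaling (0.027 over all genes) and 0.029 to 0.079 without single arrays. ISG20 passed in 13 of 16 alternatives, IRF9 in 12, IFI35 in 5 and GBP1 in 2.

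The replicate numbers were not taken as pairs. Deviations of same-numbered arrays correlated at 0.05, 0.18 and 0.07, and each array correlated best with its own number, a hint from the data and not from the design. With the replicate number as a block 283 genes and 2 effector genes, IFI35 added, passed.

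Among the genes given by array, signs turned for 14 members, none of which passed. With array weights OAS2 gave -0.069, IFITM3 -0.044, GBP3 0.011, HERC5 0.0015 and BST2 -0.080. Under median scaling IFITM2 gave 0.029 and HERC5 0.063. With averaged probes OAS3 gave -0.13 and IFIT1 0.026. Without single arrays the changes ranged from -0.050 to 0.14 for OAS3, -0.12 to 0.24 for OAS2, -0.14 to 0.061 for IFITM2, -0.048 to 0.12 for IFITM3, -0.0072 to 0.25 for MX1, -0.12 to 0.030 for GBP3, -0.043 to 0.22 for TRIM25, -0.0098 to 0.16 for PARP12, -0.065 to 0.029 for HERC5, -0.41 to 0.065 for IFI27, -0.0093 to 0.13 for SP100, -0.16 to 0.16 for BST2 and -0.10 to 0.14 for LAP3. The cause was not tested. Fits of the second IFI6 probe were chosen after its value was seen. Signal close to background limits what the 11 dim members can show.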
